A study of Homo sapiens with 44 samples.

Results

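The adrenergic core transcription factors described here are 8 genes, PHOX2A, HAND2, GATA2, GATA3, ISL1, TBX2, LMO1 and MEIS2. They were chosen by symbol, and each symbol matched 1 row of the 19923 protein-coding genes in every count table, so all 8 members were found. Each member was counted in all 44 libraries, with between 59 counts (ISL1 in an STM2457 xenograft input) and 490733 counts (HAND2 in an STM2457 RIP library of Kelly cells), and all 8 passed the filter on low counts in every comparison.

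The study treated neuroblastoma cells with STM2457, a small-molecule inhibitor of METTL3, and sequenced both poly(A) RNA (input) and the RNA pulled down with an antibody against N6-methyladenosine (RIP). Kelly and NGP are human neuroblastoma cell lines, both labelled as MYCN-amplified and with a WT genotype. Kelly cells received 8 µM STM2457 or DMSO for 1 day or for 6 days, and NGP cells received the same for 6 days, with 3 input and 3 RIP libraries per group. Kelly cells grown under the skin of nude mice (xenograft) were exposed to STM2457 at 50 mg/kg, injected into the abdomen once a day for 14 days, or to the vehicle, labelled DMSO, with 2 input and 2 RIP libraries per group. Nothing in the labels says that libraries came from separate cultures or tumours, so the p-values measure the spread between these libraries, which may be technical. In tumours, fewer human cancer cells and less RNA per cell cannot be told apart.

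Adrenergic neuroblastoma cells resemble sympathetic neuroblasts, and a small set of transcription factors, each expressed from enhancers that the others bind, maintains that state. PHOX2A, ISL1 and MEIS2 are homeodomain proteins, HAND2 is a basic helix-loop-helix factor, GATA2 and GATA3 are zinc-finger factors, TBX2 is a T-box repressor, and LMO1 is a LIM-only cofactor that bridges DNA-bound factors and does not bind DNA itself. METTL3 is the catalytic subunit of the enzyme that writes N6-methyladenosine on mRNA, mostly within DRACH sequences such as GGACT and with a preference for long internal exons, regions near stop codons and 3′ UTRs.

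The GGACT pentamer, the strongest form of the DRACH context, is shown for HAND2, the member with the highest RIP over input in Kelly cells, for PHOX2A and LMO1, the members with the lowest there, and for the GATA pair, which share sequence but not signal. Each window holds 25 bases of the GENCODE 44 canonical transcript on hg38, with the pentamer in capitals.
HAND2, CDS (chr4:173528944-173528968, minus strand): gagcggcgcaGGACTcagagcatca
HAND2, 3′ UTR (chr4:173527196-173527220, minus strand): tgcagacccaGGACTccggaaaagc
HAND2, 3′ UTR (chr4:173527162-173527186, minus strand): tccgctctgaGGACTccttgcattt
PHOX2A, 5′ UTR (chr11:72244118-72244142, minus strand): cggggcgggcGGACTctcgggcgct
PHOX2A, CDS (chr11:72243988-72244012, minus strand): ccgggccgatGGACTactcctacct
LMO1, CDS (chr11:8224653-8224677, minus strand): tgtgtcagatGGACTatgaggaagg
GATA2, CDS (chr3:128485797-128485821, minus strand): ctacagcagcGGACTcttccacccc
GATA3, CDS (chr10:8058747-8058771, plus strand): gtacagctccGGACTcttccccccc
The coding windows of GATA2 and GATA3 were identical at 21 of 25 positions. GATA2, GATA3 and ISL1 held 3 GGACT pentamers each, as HAND2 did, MEIS2 held 7, and TBX2 held none, against a median of 3 over the 13062 genes tested in Kelly cells at 6 days. The number of pentamers did not order the members by RIP signal: TBX2 with none was enriched in Kelly cells at 6 days, and GATA3 with 3 was not. Only canonical transcripts were searched, and that of TBX2 has 3433 bases where 6082 exon bases were counted.

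Levels are given as scaled CPM, the count divided by the library's total and put on the usual CPM scale, then adjusted by a factor (trimmed mean of M values, TMM) computed over all 44 libraries. To compare members with each other, the level was divided by the exon length used in the counting (CPM per kb). HAND2 was the most abundant member per length in 3 of the 4 DMSO input groups, at 727 ± 15.8 CPM per kb (SD, n = 3) in Kelly cells at 6 days, 725 ± 48.6 (SD, n = 3) in NGP cells and 558 ± 9.10 (SD, n = 2) in the xenograft. In Kelly cells at 1 day GATA2 came first at 238 ± 13.3 CPM per kb (SD, n = 3), followed by HAND2 at 198 ± 8.94 and PHOX2A at 173 ± 10.1. PHOX2A followed HAND2 in the other 3 groups, at 343 ± 11.9, 240 ± 22.5 and 271 ± 30.7 CPM per kb, though in the xenograft its lead over GATA2 was smaller than the larger SD. MEIS2 was last in all 4 groups, between 5.11 and 9.62 CPM per kb. Its counted exon length of 10817 bases is longer than the 5486 bases of its canonical transcript. Dividing by canonical lengths instead, a choice made after the data were seen, still left MEIS2 last in Kelly cells at 6 days. With those lengths GATA2 (3383 bases, 4475 counted) stood above PHOX2A (1699 bases, 1784 counted) in that group. The place of PHOX2A right after HAND2 there therefore depends on the length used. GATA3 and LMO1 in Kelly cells at 6 days, GATA3, TBX2 and GATA2 in NGP cells, and LMO1 and TBX2 in the xenograft, lay close enough that their order is uncertain.

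**Figure D1:**
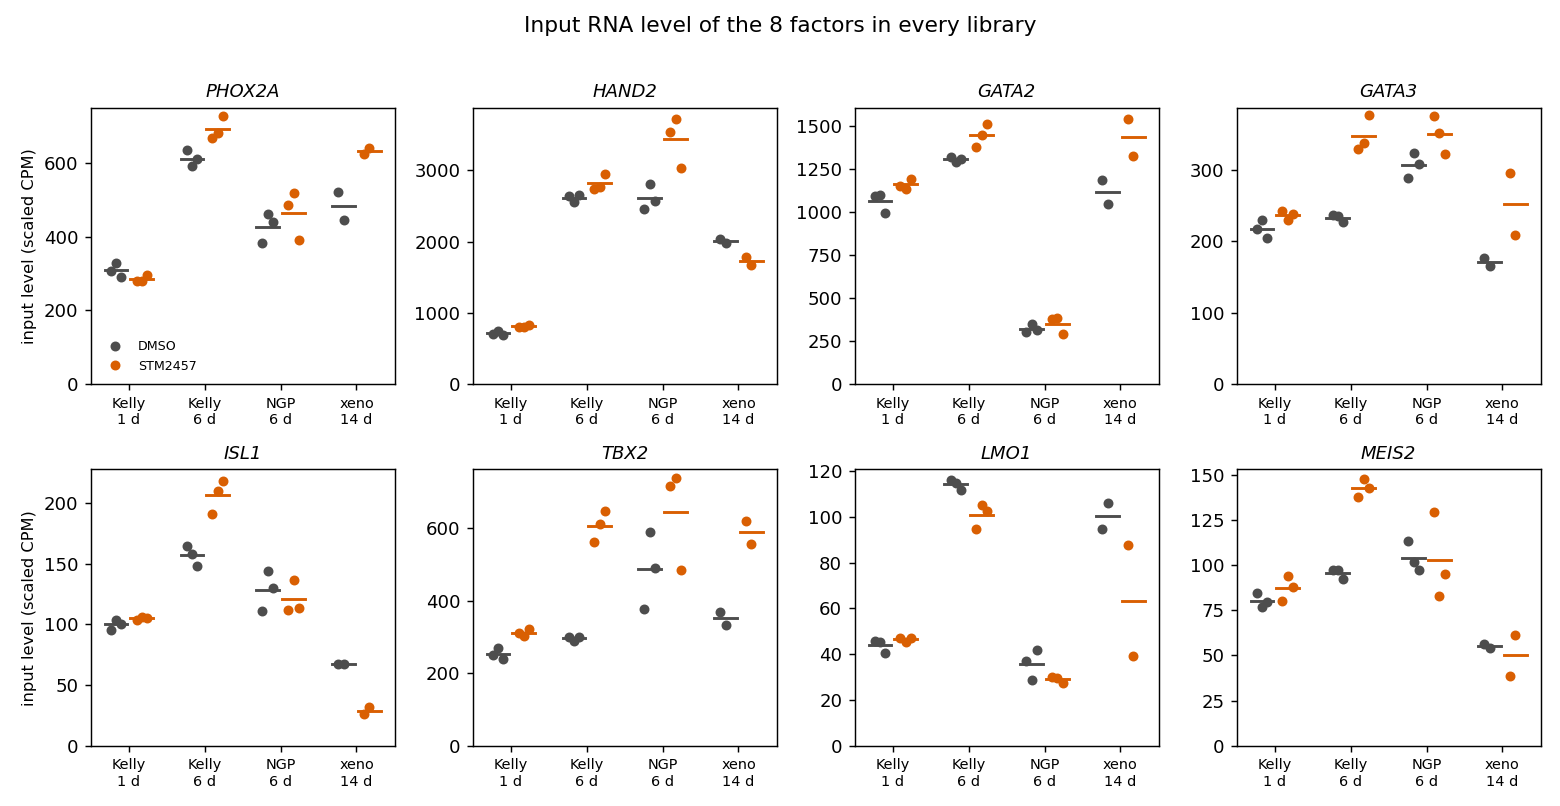
Input level of each member (vertical axes, scaled CPM, starting at 0) in every input library of the 4 experiments (horizontal axes), with DMSO in grey and STM2457 in orange; points are libraries and bars are group means. TBX2 in Kelly cells at 6 days rises from a mean of 297 to 606 scaled CPM, and GATA2 in NGP cells stays below 383 in every library.

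The file headers name 5 folders, 1 for each experiment except Kelly cells at 1 day, whose input and RIP libraries lay in separate folders. No folder holds libraries of 2 experiments, so experiment and time cannot be told apart, and the levels at 1 day and 6 days are set side by side without a test. HAND2 had a mean of 713 scaled CPM in the DMSO inputs of Kelly cells at 1 day and 2617 at 6 days, and PHOX2A 309 and 612. LMO1 likewise had a mean of 43.8 at 1 day and 114 at 6 days. The other members lay closer together at these times, with GATA2 at 1063 and 1305 and MEIS2 at 80.4 and 95.5. Among the 8 input groups, the highest group mean of ISL1 was 7.11 times the lowest, that of HAND2 4.82 times and that of GATA2 4.48 times, while GATA3 spanned 2.05 times. Groups next to each other in the order of levels overlapped in 1 of 7 cases for HAND2 and in 5 of 7 for GATA3, LMO1 and MEIS2, so the order of the groups is poorly resolved for those genes.

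The effect of STM2457 on the input RNA was tested with edgeR's quasi-likelihood test, adjusted over all genes tested, and a member is called where the adjusted p is under 0.05. In Kelly cells at 6 days 4 of the 8 members rose (TBX2, MEIS2, GATA3 and ISL1) and LMO1 fell, where among all genes tested 11.9% were called up, 14.7% were called down and 26.6% were called in either direction. At 1 day 3 members rose (TBX2, HAND2 and GATA2) and none fell, where 9.41% of genes were called up, 8.06% down and 17.5% in either direction. The median log2 change of the members was 0.26 at 6 days and 0.13 at 1 day, against medians of -0.0045 and 0.0074 over all genes tested. The members were chosen with results of these data known, and no test of the list was made.

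TBX2, a T-box repressor that holds down cell-cycle inhibitors, changed most. Its DMSO inputs in Kelly cells at 6 days held 301, 288 and 301 scaled CPM, and the STM2457 inputs held 561, 611 and 648. Every treated library was above every control, and the log2 change was 1.01 ± 0.07 (SE, adjusted p = 1.94e-08), or 2.04-fold between means. At 1 day the controls held 250, 270 and 240 scaled CPM and the treated libraries 310, 303 and 323, again without overlap, a log2 change of 0.31 ± 0.05 (SE, adjusted p = 0.000425). With all 22 inputs in 1 fit, no member was called at 1 day, and the adjusted p of TBX2 there was 0.75. That fit called few genes of any kind at 1 day, 0.127% of all genes higher and 0.0562% lower. The change at 6 days exceeded that at 1 day by 0.71 ± 0.08 on the log2 scale (SE, adjusted p = 5.16e-06). TBX2 was therefore the member with the largest called change at both times.

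Of the homeodomain members, MEIS2 and ISL1 rose at 6 days and PHOX2A was called at neither time. MEIS2, a TALE homeodomain cofactor, held 97.1, 97.2 and 92.1 scaled CPM in the DMSO inputs of Kelly cells at 6 days and 138, 147 and 143 with STM2457. The groups did not overlap, and MEIS2 rose by 0.56 ± 0.06 on the log2 scale (SE, adjusted p = 6.36e-06). ISL1, a LIM-homeodomain factor of sympathetic and motor neurons, held 165, 158 and 148 scaled CPM in the controls and 191, 210 and 218 with STM2457 at 6 days. It rose without overlap by 0.37 ± 0.07 (SE, adjusted p = 0.00075). PHOX2A, the paired-like homeodomain factor that drives noradrenergic genes such as TH and DBH, held 634, 592 and 610 in the controls and 668, 680 and 727 with STM2457 at 6 days. Its groups did not overlap, but its log2 change of 0.16 ± 0.06 (SE) was not called (adjusted p = 0.0836). At 1 day none of the 3 was called, and the log2 change was 0.13 ± 0.06 for MEIS2, 0.08 ± 0.05 for ISL1 and -0.10 ± 0.05 for PHOX2A (SE).

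The GATA factors, which specify sympathetic precursors alongside HAND2, had log2 changes above 0 at both times, with GATA3 called at 6 days and GATA2 at 1 day. The difference between these genes was not tested. GATA3 in Kelly cells at 6 days had 237, 235 and 227 scaled CPM with DMSO and 329, 338 and 376 with STM2457. It rose without overlap by 0.55 ± 0.07 on the log2 scale (SE, adjusted p = 1.34e-05). GATA2 had 1319, 1289 and 1307 with DMSO and 1378, 1443 and 1511 with STM2457, which also did not overlap, but its log2 change of 0.13 ± 0.06 was not called (SE, adjusted p = 0.165). At 1 day GATA2 rose by 0.14 ± 0.04 (SE, adjusted p = 0.034), from 1094, 1100 and 994 scaled CPM to 1151, 1135 and 1192, and GATA3 changed by 0.13 ± 0.05 without being called (SE, adjusted p = 0.079). The call for GATA2 at 1 day was lost with RLE size factors and with DESeq2. It was also lost without any of 4 single libraries (DMSO replicate 3 and STM2457 replicates 1, 2 and 3, adjusted p between 0.0639 and 0.194). With all 22 inputs in 1 fit, which called 0.127% of all genes higher at 1 day, it was lost as well (adjusted p = 1).

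HAND2, the basic helix-loop-helix factor of sympathetic neurons and heart, was called at 1 day and not at 6 days. Its DMSO inputs held 696, 750 and 692 scaled CPM and the STM2457 inputs 798, 804 and 823, a log2 change of 0.19 ± 0.04 (SE, adjusted p = 0.00491) without overlap. The call was lost with all 22 inputs in 1 fit (adjusted p = 0.746), which called 0.127% of all genes higher at 1 day. At 6 days the controls held 2641, 2552 and 2658 and the treated libraries 2741, 2767 and 2948, and the log2 change of 0.09 ± 0.06 was not called (SE, adjusted p = 0.351). Part of its counted exon is shared with a gene on the opposite strand.

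LMO1, the LIM-only cofactor whose locus carries inherited risk of neuroblastoma, was the member that fell. In Kelly cells at 6 days its DMSO inputs held 116, 115 and 112 scaled CPM and its STM2457 inputs 94.6, 105 and 103. All treated libraries were below all controls, and LMO1 fell by 0.21 ± 0.06 on the log2 scale (SE, adjusted p = 0.0246). The call was lost with DESeq2 (adjusted p = 0.0521) and without any of 4 single libraries (DMSO replicates 1, 2 and 3 and STM2457 replicate 1, adjusted p between 0.0646 and 0.104). At 1 day LMO1 held between 40.7 and 47.1 scaled CPM in all 6 libraries and was not called.

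**Figure D2:**
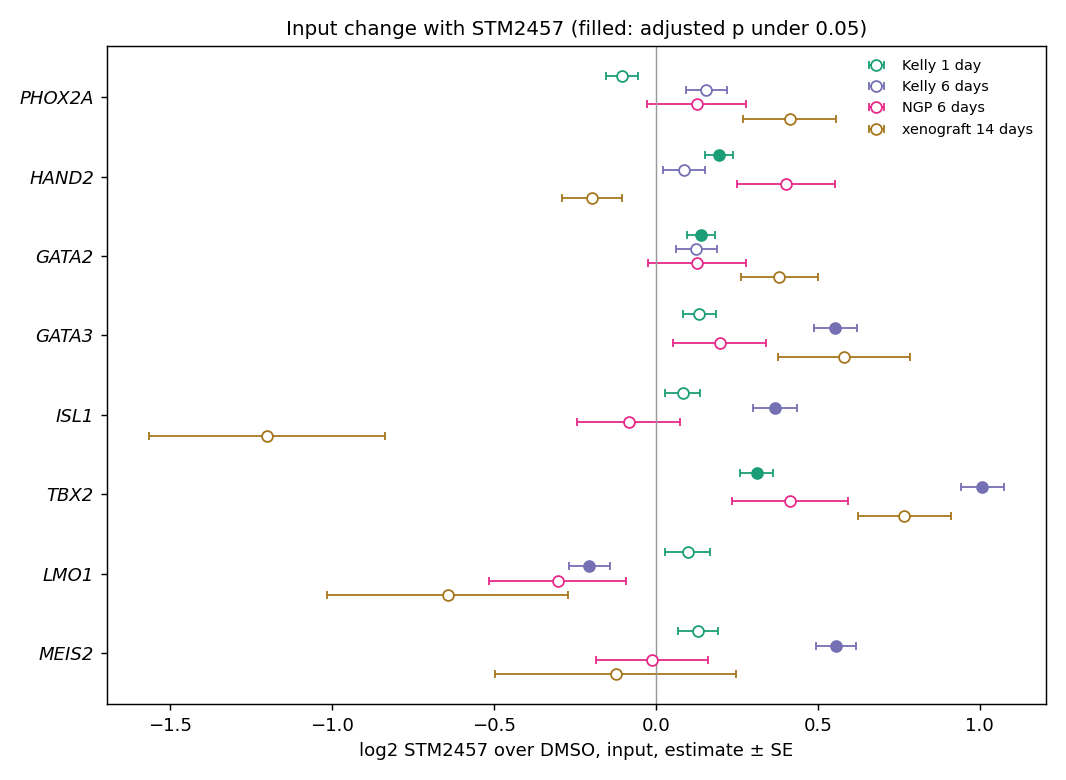
Log2 input change with STM2457 over DMSO (horizontal axis) for each member in the 4 experiments, as edgeR estimates with SE bars; filled symbols have an adjusted p under 0.05. TBX2 in Kelly cells at 6 days lies at 1.01 and is filled, and ISL1 in the xenograft lies at -1.20 with an open symbol.

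The response at 6 days differed from that at 1 day for 6 of the 8 members in a single model of both times, against 8.41% of all genes tested (3.67% higher and 4.73% lower). It was higher at 6 days for TBX2, for MEIS2 by 0.44 ± 0.09, for GATA3 by 0.44 ± 0.09, for ISL1 by 0.30 ± 0.09 and for PHOX2A by 0.28 ± 0.08. It was lower by 0.29 ± 0.09 for LMO1, whose change was 0.098 at 1 day, without a call, and -0.21 at 6 days. All are on the log2 scale with SE, and the adjusted p of the 6 differences lay between 5.16e-06 and 0.0497. HAND2 and GATA2 were not called, with differences of -0.09 ± 0.08 and 0.0042 ± 0.08. TBX2, GATA3 and MEIS2 kept their calls without any single library. PHOX2A lost its call without DMSO replicate 2 or STM2457 replicate 1 or 2 of the 1-day inputs, and ISL1 without DMSO replicate 2 or 3 or any STM2457 replicate of those inputs. LMO1 kept its call only without DMSO replicate 2 of the 1-day inputs. The times share no library, and each has its own controls in its own folder.

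In NGP cells no member was called at 6 days by edgeR, where 4.23% of all genes were, although HAND2 and TBX2 had an unadjusted p under 0.05 (2 members). DESeq2 called HAND2 (1 member), against 2.98% of all genes higher and 3.12% lower. HAND2 held 2456, 2800 and 2574 scaled CPM with DMSO and 3541, 3724 and 3036 with STM2457, without overlap, a log2 change of 0.40 ± 0.15 (SE, adjusted p = 0.145). TBX2 held 378, 591 and 491 with DMSO and 716, 737 and 485 with STM2457, which overlapped, a log2 change of 0.41 ± 0.18 (SE, adjusted p = 0.215). The other 6 members had log2 changes between -0.30 (LMO1) and 0.20 (GATA3). NGP inputs held 5488974 to 11604403 counts and those of Kelly cells at 6 days 5765458 to 31487824. The spread between replicates was larger in NGP cells, with a common biological coefficient of variation in the fit of 0.24 against 0.0913, and the SEs of the members ranged from 0.14 to 0.21.

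Whether the lines responded differently was tested in 1 model of both lines at 6 days. No member's response differed between NGP and Kelly cells by edgeR or DESeq2, against 1.36% of genes called by edgeR, and 4 of 8 had an unadjusted p under 0.05. The response was lower in NGP cells by 0.62 ± 0.22 for TBX2 (log2, SE, adjusted p = 0.216) and by 0.59 ± 0.19 for MEIS2 (adjusted p = 0.145). MEIS2 was called without NGP STM2457 replicate 1 (adjusted p = 0.0118). A weaker response of the members in NGP cells was thus not shown.

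The lines did differ in the members' basal levels. In the DMSO inputs at 6 days, 6 of the 8 members differed between NGP and Kelly cells, against 60.8% of all genes tested (29.1% higher and 31.7% lower), so a difference was the rule for genes in general. GATA2 held 302, 351 and 313 scaled CPM in NGP cells and 1319, 1289 and 1307 in Kelly cells, a log2 difference of -2.03 ± 0.08 (SE, adjusted p = 2.56e-08). LMO1 held 37.2, 28.8 and 41.6 in NGP cells against 116, 115 and 112 in Kelly cells, a log2 difference of -1.67 ± 0.13 (SE, adjusted p = 1.74e-06). These were the members with the largest gaps, and neither gene's groups overlapped.

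PHOX2A (-0.53 ± 0.09) and ISL1 (-0.31 ± 0.11) were also lower in NGP cells, and TBX2 (0.70 ± 0.14) and GATA3 (0.38 ± 0.08) were higher (log2, SE; adjusted p between 0.000437 and 0.027). HAND2 was level, at 2610 ± 175 in NGP and 2617 ± 56.8 scaled CPM in Kelly cells (SD, n = 3), a log2 difference of -0.02 ± 0.08. With a GC trend fitted to each library, an alternative added after the data were seen, PHOX2A moved to 0.0097 and was no longer called, HAND2 moved to 0.34 with a call, and MEIS2 turned from 0.11 to -0.15 without one. ISL1 lost its call without Kelly DMSO replicate 1 or 2 or NGP DMSO replicate 1 or 3. Across genes, the NGP minus Kelly difference in level fell with transcript GC content (Spearman rho -0.289 over 12700 genes), and the part of GC content in these differences was not tested further.

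In the xenograft no gene was called by edgeR at 14 days (0.00%), whereas the unadjusted p was under 0.05 for 5 of the 8 members. DESeq2 called 2 of them, TBX2 and GATA2, against 0.936% of all genes higher and 0.0618% lower. It gave no adjusted p for ISL1, LMO1 and MEIS2. Treated and control libraries did not overlap for 4 members that were higher (PHOX2A, GATA2, GATA3 and TBX2) and 3 that were lower (HAND2, ISL1 and LMO1), where 18.8% of all genes were higher and 22.1% lower without overlap. TBX2 held 369 and 333 scaled CPM with DMSO and 621 and 558 with STM2457, a log2 change of 0.77 ± 0.14 (SE, adjusted p = 0.325). ISL1 held 67.6 and 67.5 with DMSO and 26.1 and 32.0 with STM2457, a log2 change of -1.20 ± 0.36 (SE, adjusted p = 0.515).

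Of the members called in cultured Kelly cells at 6 days, TBX2, GATA3 (0.58 ± 0.20) and LMO1 (-0.64 ± 0.37) thus lay on the same side in tumours. ISL1 and MEIS2 (-0.12 ± 0.37, with overlapping libraries) lay on the other. With all 22 inputs in 1 fit, which takes the spread mostly from the cultured cells, 6 members were called in the xenograft. Those included TBX2 (adjusted p = 0.00399) and ISL1 (adjusted p = 5.23e-05). That fit called 2552 of the 14224 genes tested in the xenograft, so calls there were frequent among genes in general. The xenograft inputs held 2144870 to 7271929 counts, and 3 of the 4 were the shallowest of all 44 libraries. LMO1 differed between its STM2457 libraries, with 87.6 and 39.0 scaled CPM. Without STM2457 replicate 1 or 2 only 1 treated library remained, so the members called in those fits are not named here.

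RIP over input was expressed as the log2 ratio of RIP to input in the DMSO groups from the same kind of model. A member is called enriched where the adjusted p is under 0.05 and the ratio at least 2-fold (a log2 ratio of at least 1), and depleted at the corresponding lower bound. RIP and input of Kelly cells at 1 day lay in separate folders, so the folder and the enrichment cannot be told apart there, while the change of enrichment with treatment compares libraries within each folder. In Kelly cells 4 members were enriched at 1 day (HAND2, GATA2, ISL1 and MEIS2) and 5 at 6 days (TBX2 in addition), against 26.3% and 25.8% of all genes. PHOX2A and LMO1 were depleted at both times, against 29.1% and 27.3% of genes. In NGP cells HAND2 and MEIS2 were enriched (20.9% of genes) and PHOX2A was depleted (19.0%), and in the xenograft HAND2 was enriched (1.61%) and PHOX2A depleted (2.15%). HAND2 was thus called enriched and PHOX2A depleted in all 4 experiments, though neither call in the xenograft held when a DMSO library was left out. In NGP cells HAND2 was below 2-fold without DMSO replicate 1 (log2 0.90), which left 1 enriched member, MEIS2.

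HAND2 stood near the top of all RIP signal. In Kelly cells at 6 days the DMSO RIP libraries held 34780, 29110 and 24840 scaled CPM of HAND2 against an input mean of 2617. These are 3.16%, 2.81% and 2.27% of all counts in those libraries. By mean share of counts HAND2 ranked 2 of 19923 genes in the DMSO RIP and 43 in the DMSO input, and in the DMSO RIP of Kelly cells at 1 day, NGP cells and the xenograft it ranked 3, 2 and 2. The log2 RIP over input was 3.38 ± 0.06 at 1 day, 3.47 ± 0.21 at 6 days, 1.34 ± 0.25 in NGP cells and 2.93 ± 0.57 in the xenograft (SE; adjusted p = 3.03e-13, 7.27e-08, 7.54e-05 and 0.0311).

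PHOX2A had the lowest RIP over input of the 8 members in each experiment. Its DMSO RIP libraries in Kelly cells at 6 days held 129, 116 and 135 scaled CPM against input values of 592 to 634. The log2 RIP over input was -2.82 ± 0.14 at 1 day, -2.30 ± 0.21 at 6 days, -2.85 ± 0.18 in NGP cells and -2.69 ± 0.61 in the xenograft (SE; adjusted p = 1.32e-09, 1.62e-06, 8.14e-11 and 0.0465). LMO1 was depleted in Kelly cells, at -2.11 ± 0.23 and -2.19 ± 0.49 (adjusted p = 2.18e-06 and 0.00226), with as few as 8.86 scaled CPM in a RIP library at 1 day. In NGP cells LMO1 stood at -0.43 ± 0.25 and was not called depleted.

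GATA2 and GATA3, relatives with the same DNA motif and a nearly shared GGACT window, differed in RIP signal in Kelly cells. The DMSO RIP libraries at 6 days held 5733, 4871 and 4885 scaled CPM of GATA2 and 115, 141 and 160 of GATA3, against input means of 1305 and 233. GATA2 had a log2 RIP over input of 1.71 ± 0.05 at 1 day and 1.96 ± 0.18 at 6 days, and GATA3 of -0.42 ± 0.09 and -0.78 ± 0.20 (SE; adjusted p between 8.71e-12 and 0.0055). In the DMSO RIP, GATA2 ranked 4 of all genes at 1 day and 9 at 6 days. In NGP cells neither was called, at 0.18 ± 0.24 and -0.10 ± 0.16.

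ISL1, MEIS2 and TBX2 were intermediate. ISL1 had a log2 RIP over input of 1.46 ± 0.07, 1.28 ± 0.15, 0.99 ± 0.17 and 1.57 ± 0.57 in the 1-day, 6-day, NGP and xenograft DMSO groups, with an adjusted p under 0.05 in the first 3, although the NGP value is below 2-fold. MEIS2 had 1.36 ± 0.10, 2.1 ± 0.25, 1.37 ± 0.19 and 1.95 ± 0.56, with an adjusted p under 0.05 in the first 3. TBX2 had 0.66 ± 0.12 and 1.44 ± 0.19 in Kelly cells, -0.68 ± 0.26 in NGP cells and 1.41 ± 0.67 in the xenograft, and differed from 0 upwards in Kelly cells and downwards in NGP cells by the adjusted p alone (adjusted p = 0.000385, 4.6e-05 and 0.031). The TBX2 value in NGP cells turned to 0.40 without a call when a GC trend was fitted to each library. The adjusted p in NGP cells was also above 0.05 without DMSO replicate 2 (log2 -0.30, adjusted p = 0.434) or replicate 3 (log2 -0.55, adjusted p = 0.171).

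**Figure D3:**
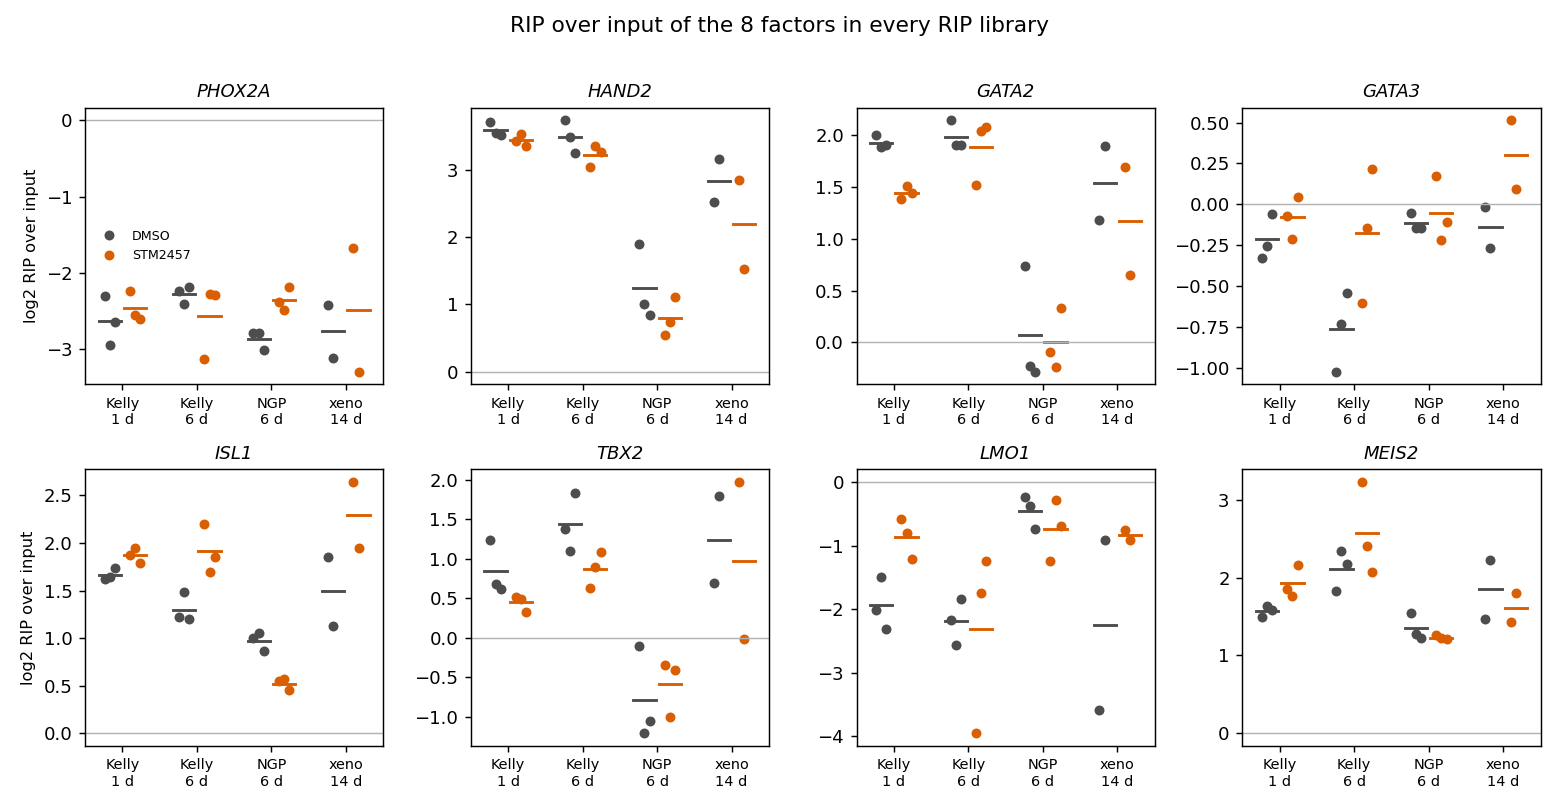
Log2 ratio of each RIP library to the mean input of its group (vertical axes, scaled CPM over scaled CPM) for each member in the 4 experiments, with DMSO in grey and STM2457 in orange; points are libraries, bars are group means and the thin line marks 0. HAND2 lies between 3.04 and 3.73 in every RIP library of cultured Kelly cells, and PHOX2A lies below -1.6 in every library.

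STM2457 is directed at the enzyme that writes the mark, so the change in RIP over input with treatment was tested as an interaction. With TMM scaling, which holds the bulk of genes at no change, 2 members were called in Kelly cells at 1 day, against 17.2% of genes (9.53% higher and 7.62% lower). GATA2 fell by 0.51 ± 0.07 (SE, adjusted p = 0.000309), with ratios to the input mean of 4.00, 3.67 and 3.74 with DMSO and 2.61, 2.84 and 2.72 with STM2457. LMO1 rose by 1.03 ± 0.31 (SE, adjusted p = 0.0364), from 0.249, 0.355 and 0.202 to 0.672, 0.573 and 0.432. Neither gene's groups overlapped. The call of LMO1 was lost without any of 4 single replicates (DMSO 1 and 3, STM2457 1 and 2, adjusted p between 0.0693 and 0.16), where an input and a RIP library of the same number were left out together.

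No member was called by edgeR or DESeq2 at 6 days in Kelly cells (2.06% of genes called by edgeR, 2 members with an unadjusted p under 0.05), in NGP cells (0.00%, 1 member) or in the xenograft (0.00%, none). In Kelly cells at 6 days the RIP library of STM2457 replicate 1 stood apart for several members. Its ratio for MEIS2 was 9.38 against 5.30 and 4.19 in the other 2 treated libraries, and for LMO1 0.0647 against 0.297 and 0.422. ISL1 had ratios of 2.33, 2.79 and 2.29 with DMSO and 4.58, 3.23 and 3.61 with STM2457, which did not overlap, but its log2 change of 0.68 ± 0.21 was not called (SE, adjusted p = 0.126). Without STM2457 replicate 1 the change of MEIS2 was 0.17 in place of 0.58, that of LMO1 0.72 in place of 0.29, and still no member was called.

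The sign of these changes is relative to the scaling. When the libraries were scaled on the 13 mitochondrial mRNAs, which are made outside the nucleus, the median over all genes moved from -0.03 to -1.50 in Kelly cells at 1 day and from 0.20 to -2.15 at 6 days, so changes on that scale are read against those medians. On it, 7 members were lower with STM2457 at 1 day, against 62.4% of genes, with log2 changes from -1.14 (MEIS2) to -1.99 (GATA2), and LMO1 stood at -0.44 without a call (adjusted p = 0.234). At 6 days 4 members were lower (PHOX2A, HAND2, GATA2 and TBX2, between -2.36 and -3.08), against 36.6% of genes. The rise of LMO1 at 1 day under TMM scaling is therefore a change relative to other genes: on the mitochondrial scale it lay below 0 without a call, and above the median of all genes on both scales. In NGP cells the median moved to -0.26 and no member was called under either scaling. The spike-in RNA named in the protocol was not used here.

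**Figure D4:**
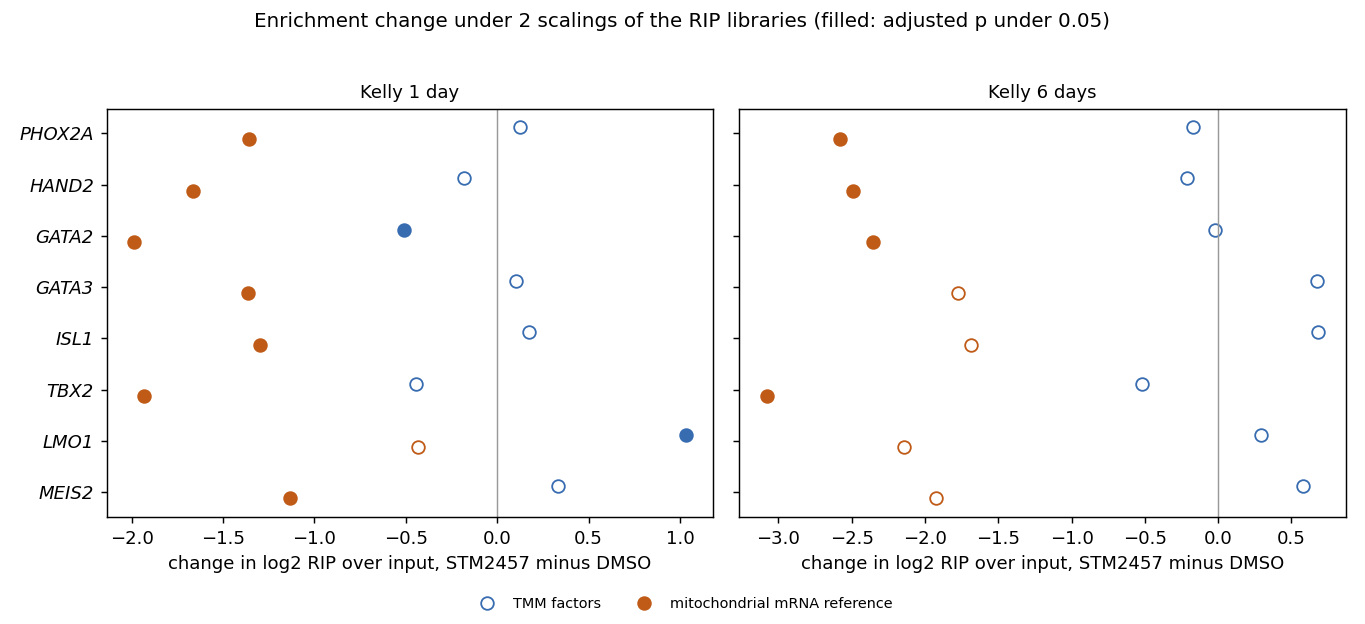
Change in log2 RIP over input with STM2457 (horizontal axes) for each member in the 1-day and 6-day experiments on Kelly cells, with TMM factors in blue and scaling on 13 mitochondrial mRNAs in brown; filled symbols have an adjusted p under 0.05. Every member lies to the left on the mitochondrial scale, and GATA2 at 1 day is filled on both, at -0.51 and -1.99.

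RIP over input differed between the lines. In the DMSO groups at 6 days, 6 of 8 members differed between NGP and Kelly cells, against 46.1% of all genes tested (23.9% higher and 22.2% lower). It was lower in NGP cells for HAND2 (-2.30 ± 0.36), TBX2 (-2.29 ± 0.39), GATA2 (-1.95 ± 0.33), MEIS2 (-0.91 ± 0.23) and PHOX2A (-0.71 ± 0.21), and higher for LMO1 (1.59 ± 0.32; all log2, SE; adjusted p between 0.000119 and 0.0112). HAND2 had ratios of 13.3, 11.1 and 9.49 in Kelly cells and 3.71, 2.00 and 1.79 in NGP cells, without overlap. TBX2 had 2.60, 2.14 and 3.55 against 0.929, 0.433 and 0.481. NGP DMSO replicate 1 was the highest of its group for both genes and for GATA2 (1.67 against 0.853 and 0.824).

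RIP over input moved with base composition in NGP cells. Across 12821 genes the log2 ratio fell with the GC content of the transcript in NGP DMSO libraries (Spearman rho -0.494), against 0.102 over 13062 genes in Kelly cells at 6 days, 0.06 at 1 day and 0.05 in the xenograft. Genes are not independent replicates, and these are descriptions of the libraries. The median log2 ratio of genes with 65 to 70% GC was -1.14 in NGP and 0.80 in Kelly cells, and PHOX2A (66.5%) and TBX2 (66.1%) lie in that range, HAND2 (58.5%) and GATA2 (59.7%) in one with medians of -0.63 and -0.10. With a GC trend fitted to each library, HAND2 (-1.79), GATA2 (-1.32), TBX2 (-0.81) and MEIS2 (-2.02) remained lower in NGP cells and LMO1 (1.83) higher, each called, whereas PHOX2A turned to 0.90 with a call (adjusted p = 0.00333). PHOX2A also lost its call without Kelly DMSO replicate 3 or NGP DMSO replicate 2 or 3. On the mitochondrial scale HAND2 alone of the 8 was called (-2.36), where 10.4% of all genes were called higher and 4.86% lower. That scale sets each DMSO RIP library against the mean of its own experiment. It therefore puts the lines on no common reference and cannot show whether their difference depends on the scaling.

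**Figure D5:**
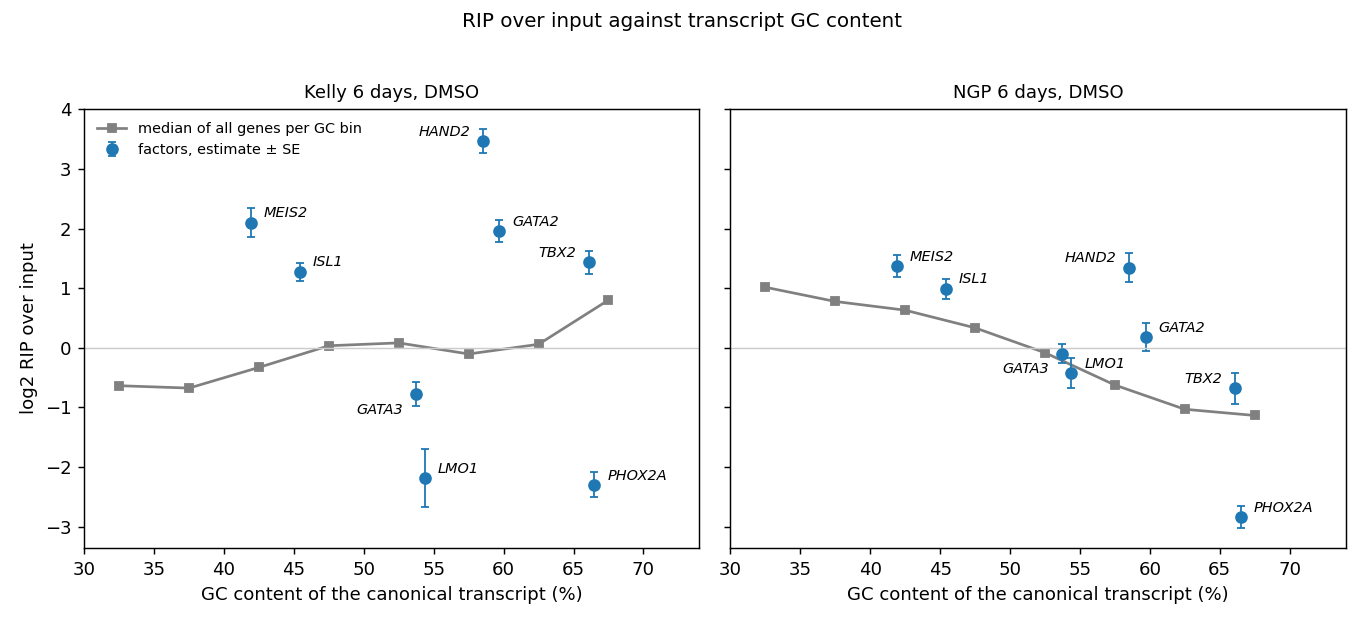
Log2 RIP over input in the DMSO groups (vertical axis) against the GC content of the canonical transcript (horizontal axis, percent) in Kelly and NGP cells at 6 days; blue points are the members with SE bars, and the grey line joins the median of all genes in each 5-point GC bin of at least 100 genes. The median falls from 1.02 to -1.14 across GC bins in NGP cells, and HAND2 lies above it in both lines.

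The transcripts of the members differ in the features that RIP signal followed across genes. In Kelly cells at 6 days the log2 ratio rose with the length of the longest exon (Spearman rho 0.301 across 13062 genes) and fell with the number of exons (rho -0.278). The longest exon was 3256 bases in MEIS2, 1892 in GATA2, 1495 in HAND2, 1460 in GATA3, 1413 in TBX2, 1237 in ISL1, 1122 in PHOX2A and 541 in LMO1, so the depleted members held the shortest ones. Among these genes the longest exon of PHOX2A stood at percentile 34, close to enriched ISL1 at 36.9, GATA3 at 42.7 and HAND2 at 43.6. HAND2 has 2 exons and a 5′ UTR of 940 bases, longer than that of 98.6% of these genes. MEIS2 has 12 exons and a 5′ UTR of 1083 bases (99.1%). The 5′ UTRs of GATA3 (94.1%), which was not enriched, and of depleted LMO1 (92.4%) were also long. PHOX2A, with 3 exons and 1699 bases, has the shortest transcript of the set after LMO1 with 1294. With 8 genes these are descriptions and no relation among them was tested.

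The loci also set limits on single members. Counts were made without regard to strand. HAND2 (chr4:173524969-173530229, minus strand) shares 867 of its 3601 counted exon bases (24.1%) with HAND2-AS1 on the opposite strand, so reads from these genes there cannot be told apart. PHOX2A (chr11:72239077-72245664) shares 71 bases with INPPL1, MEIS2 (chr15:36889204-37101299) 431 with a long noncoding RNA and TBX2 (chr17:61399843-61409466) 28 with another, all opposite. No shared exon was found in GENCODE 44 for GATA2 (chr3:128479427-128493201), GATA3 (chr10:8045378-8075198), ISL1 (chr5:51383448-51394730) or LMO1 (chr11:8224309-8268716).

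Since the members are known to bind each other's regulatory DNA, RefSeq promoters (GRCh38.p14) of 7 members (none for TBX2 in the table used) were searched on both strands for 4 motifs. These were GATAA for the GATA factors, TAATTA as a homeodomain core, CAGCTG or else CATCTG as E-boxes of helix-loop-helix factors, and TCACACC as a T-box core. Windows ran from 250 bases before to 50 after a start. HAND2 held 3 GATA matches and 1 homeodomain match, ISL1 2 GATA matches and 1 E-box, and LMO1 2 homeodomain matches. The first 250 bases of these windows, which hold over 1 match each, are shown on hg38 with matches in capitals. The LMO1 window belongs to another start than that of the canonical transcript used above, which begins at chr11:8263878. In HAND2 a TAATTA and a TTATC overlap.
HAND2 (chr4:173530230-173530479, minus strand): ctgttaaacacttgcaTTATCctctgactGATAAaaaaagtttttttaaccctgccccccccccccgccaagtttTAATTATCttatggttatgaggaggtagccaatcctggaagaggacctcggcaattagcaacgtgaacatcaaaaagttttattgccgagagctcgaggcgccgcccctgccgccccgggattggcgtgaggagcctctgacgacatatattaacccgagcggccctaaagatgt
ISL1 (chr5:51383198-51383447, plus strand): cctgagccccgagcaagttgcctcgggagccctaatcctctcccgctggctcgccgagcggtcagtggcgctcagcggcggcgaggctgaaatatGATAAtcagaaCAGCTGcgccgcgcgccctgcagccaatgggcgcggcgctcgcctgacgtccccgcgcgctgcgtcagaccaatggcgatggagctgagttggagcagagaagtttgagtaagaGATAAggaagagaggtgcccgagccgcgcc
LMO1 (chr11:8268788-8269037, minus strand): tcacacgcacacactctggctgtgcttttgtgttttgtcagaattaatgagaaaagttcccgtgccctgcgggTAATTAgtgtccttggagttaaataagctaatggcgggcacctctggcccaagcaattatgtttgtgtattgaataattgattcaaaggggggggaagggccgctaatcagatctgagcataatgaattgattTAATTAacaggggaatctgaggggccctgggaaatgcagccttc
Of 35116 RefSeq promoters of the same length, 22.7% held the GATA letters, 4.84% TAATTA, 29.8% an E-box and 3.45% the T-box core. Several members have more than 1 promoter in the table, and GATA3 held 1 GATA match and 1 E-box over its 6 windows and GATA2 1 E-box over its 2. A match is a string of letters and was not tested for binding.

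The other genes of the circuit were read from 3 lists. After 6 days in Kelly cells, 9 of 20 other core circuit and adrenergic regulators rose and 3 fell, where 11.9% of all genes rose and 14.7% fell, with a median log2 change of 0.19, close to the members' 0.26. INSM2 fell most, by 0.36 ± 0.06 on the log2 scale, and MYCN, the amplified oncogene, rose by 0.24 ± 0.07 at 6 days. In NGP cells 3 of the 20 rose and 3 fell, where 4.23% of all genes were called in either direction, with TBX3, a close relative of TBX2, rising by 2.18 ± 0.20 and SIX3 falling by 1.22 ± 0.22. At 1 day in Kelly cells 5 rose and 1 fell (9.41% and 8.06% of all genes), led by HEY1 (0.47) and EYA1 (-0.29). In RIP over input 15 of the 20 were enriched in the DMSO group of Kelly cells at 1 day and 14 at 6 days, against 26.3% and 25.8% of all genes.

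Of 21 partners and cofactors, 20 were tested in Kelly cells at 6 days, where 6 rose and 1 fell (11.9% and 14.7% of all genes). MEIS3, a relative of MEIS2, rose by 0.50 ± 0.07. At 1 day 5 rose and 1 fell of 19 tested (9.41% and 8.06% of all genes), with LDB2, a LIM-domain-binding protein, at 0.26 and SSBP3 at -0.18, and in NGP cells 3 of 19 tested rose and none fell (4.23% of all genes called), among them ZFPM1, a GATA cofactor, by 1.04 ± 0.21. Of 21 sympathoadrenal target genes, 6 were called higher and 10 lower after 6 days in Kelly cells, against 11.9% and 14.7% of all genes. RET, a receptor tyrosine kinase, rose by 1.19 ± 0.07, and TH, the rate-limiting enzyme of catecholamine synthesis, fell by 1.01 ± 0.07, from 1045 to 528 scaled CPM. At 1 day 5 rose and 6 fell (9.41% and 8.06% of all genes), with SLC18A1, a vesicular monoamine transporter, at -0.56. In NGP cells 3 rose and 1 fell of 19 tested (4.23% of all genes called), RET by 2.00 ± 0.17 and DLK1 at -0.86 ± 0.15. In the xenograft no gene of any list was called by edgeR.

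Likeness over the 22 input libraries was measured by Pearson's r of log2(scaled CPM + 1) among 9213 genes with a mean of at least 10 CPM, and it mixes cell line, experiment and treatment. The genes most like each member were NME4 and C9orf16 for PHOX2A (r = 0.963 and 0.962), GLRX5 and BASP1 for HAND2 (0.986 and 0.985), PRSS21 and VSTM2L for GATA2 (both 0.988) and SHD and NOA1 for GATA3 (0.922 and 0.911). They were PMAIP1 and LMBR1 for ISL1 (0.931 and 0.923), MLLT6 and MEX3A for TBX2 (0.929 and 0.924), KCNN1 and INSM2 for LMO1 (0.963 and 0.961) and LRIF1 and NOMO3 for MEIS2 (0.886 and 0.878). Among the members themselves the closest pairs were ISL1 with MEIS2 (0.873), GATA3 with TBX2 (0.772), PHOX2A with HAND2 (0.77) and GATA2 with LMO1 (0.738), and the most opposed was GATA2 with GATA3 (-0.443).

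Libraries held from 2144870 counts (a xenograft input) to 36497858 counts (a RIP library of Kelly cells at 1 day). The adrenergic identity of the cells was checked on 6 markers, of which 6 were at 10 scaled CPM or more in Kelly cells and the xenograft and 5 in NGP cells, led by CHGA. Of 16 markers of the mesenchymal state between 4 and 7 reached that level, and of 4 glial markers none. In the xenograft inputs the 7 endothelial and blood markers summed to between 0.512 and 8.94 scaled CPM, with none at 10 or more. These are human genes and the host was a mouse, so the sum does not measure host tissue in the tumours.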

How the data were processed

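The deposited files hold counts of read pairs per gene that the authors made with featureCounts (Subread 1.5.3, per the submitters' processing notes), after trimming with Trimmomatic 0.36 and alignment with HISAT2 2.1.0 to GRCh38. Per the file headers, exons were counted by gene name without strand, over protein-coding genes. Each library is 1 file, and totals ran from 2144870 to 36497858 counts. The members and the gene lists were chosen with earlier results of these data known. All members are named, whatever their values. Of other lists, those named are MYCN and the called gene with the largest rise or fall per list and culture experiment whose groups do not overlap; some genes under this rule are not reported here. Counts were tested with edgeR 4.0.16 in R 4.3.3 (quasi-likelihood F test, TMM factors of the libraries in each fit, filterByExpr with a minimum count of 10 and a total of 15) and adjusted by Benjamini-Hochberg over all genes tested. Each experiment was fitted alone, with RIP over input and its change with treatment as contrasts. Differences between times or lines came from joint fits. Alternatives were RLE factors, DESeq2 1.42.0, no filter, a replicate block, all inputs in 1 fit, 13 mitochondrial mRNAs as reference and each replicate left out, and, added after seeing the data, GC trend offsets and canonical lengths. The procedure was tested on simulated counts. Transcripts and GGACT windows came from GENCODE 44 on hg38.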

Additional observations from a re-analysis of the deposited data

Results flagged for a closer look

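The response of the input RNA to STM2457 differed between 6 days and 1 day in Kelly cells for 6 members, by the interaction test in edgeR. Of all genes tested, 8.41% differed (3.67% higher and 4.73% lower). The differences on the log2 scale were 0.71 for TBX2, 0.44 for MEIS2, 0.44 for GATA3, 0.30 for ISL1, 0.28 for PHOX2A and -0.29 for LMO1. The values of LMO1 and PHOX2A had the highest adjusted p-values of the 6, at 0.0497 and 0.0336.

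RIP over input in the DMSO groups differed between NGP and Kelly cells at 6 days for 6 members, by the same kind of test. Such a difference was common, at 46.1% of all genes tested (23.9% higher and 22.2% lower). The log2 differences, NGP minus Kelly, were -2.30 for HAND2, -2.29 for TBX2, -1.95 for GATA2, -0.91 for MEIS2, -0.71 for PHOX2A and 1.59 for LMO1. The value of PHOX2A took the opposite sign once a GC trend was fitted.

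In the xenograft every STM2457 input lay below every DMSO input for HAND2 and ISL1, while in some cultured experiments every treated input lay above. In the xenograft 22.1% of all genes were lower without overlap. In Kelly cells at 1 day and 6 days and in NGP cells, 16.2%, 21.2% and 11.5% were higher without overlap. Neither xenograft change was called by edgeR (adjusted p = 0.598 for HAND2 and 0.515 for ISL1), nor was that of HAND2 in Kelly cells at 6 days or in NGP cells. For HAND2 the xenograft change minus that of Kelly cells was -0.39 against 1 day and -0.29 against 6 days, and minus that of NGP cells it was -0.60 (log2). For ISL1 the xenograft change minus that of Kelly cells at 6 days was -1.57. The difference was not tested in these 4 cases, and the tumours also differ from the cultures in dose, route, time and depth.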

How the results depend on the processing

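Groups held 2 or 3 libraries, and the spread between input replicates (edgeR's common coefficient of variation) was 0.0725 and 0.0913 in Kelly cells at 1 and 6 days, 0.24 in NGP cells and 0.448 in the xenograft; the part of depth in this spread was not tested. Of the counts of members called, 73 under other settings and 91 with a replicate left out stayed within 1.5 times the reported count. The other 19 and 11 did not. A count of 0 on both sides was taken as unchanged. Of the members' log2 values, 31 under other settings and 37 with a replicate left out changed sign. The cause of the exceptions below was not tested. Values are log2.

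With DESeq2, 4 members were called in the enrichment change of Kelly cells at 1 day (14.1% of all genes higher and 7.72% lower). In the NGP input 1 was called (2.98% and 3.12%) and in the xenograft input 2 (0.936% and 0.0618%). In the xenograft 3 were enriched (5.50% of all genes higher by the adjusted p alone), and the NGP minus Kelly response of GATA2 was 7.7e-05. Without the filter 1 was called in the xenograft input (0.540% of all genes higher and 0.143% lower). There 2 were enriched (3.22% higher by the adjusted p alone), and the enrichment change of GATA2 in Kelly cells at 6 days was 2.0e-05. With all inputs in 1 fit 0 members were called in Kelly cells at 1 day, where edgeR had 6 with an unadjusted p under 0.05 and DESeq2 called 2. The fit of all inputs called 1 member in NGP cells, where 625 of 14224 genes were higher and 641 lower. It called 6 in the xenograft, where 981 of 14224 genes were higher and 1571 lower.

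Same-numbered treated and control inputs correlated between -0.349 and 0.153, so the numbers were not taken as pairs. With the replicate block 1 member was called in the xenograft input (0.485% of all genes higher and 0.0883% lower). In the Kelly 6 days minus 1 day response 3 were called (2.29% and 3.72%), and the enrichment change of TBX2 in the xenograft was -0.12.

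On the mitochondrial reference 7 members were called in the enrichment change of Kelly cells at 1 day (62.4% of all genes lower) and 4 at 6 days (36.6%). At 1 day PHOX2A (-1.36), GATA3 (-1.36), ISL1 (-1.30) and MEIS2 (-1.14) turned from above 0 with a call, and LMO1 (-0.44) without one. At 6 days GATA3 (-1.77), ISL1 (-1.68), LMO1 (-2.14) and MEIS2 (-1.92) turned without a call. GATA3 at -0.16 and TBX2 at -0.19 in NGP cells, and TBX2 at -0.46 and LMO1 at -0.085 in the xenograft, also turned. In the xenograft 0 members were enriched (0.00% of all genes called higher), with GATA3 at 0.17. Of the enrichment differences between the lines, 1 was called (10.4% of all genes higher and 4.86% lower). For DMSO libraries this reference only evens out replicates within an experiment, so these 2 counts do not check the scaling between experiments.

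With GC trend offsets 5 members were called in the Kelly input at 1 day (12.7% of all genes higher and 14.1% lower). In NGP cells 1 was enriched and in the xenograft 2 (26.4% and 3.01% of all genes higher by the adjusted p alone). The NGP minus Kelly response was called for 1 (1.00% higher and 1.01% lower). Enrichment changes turned to 0.063 (HAND2) and 0.14 (TBX2) at 1 day, 0.077 (PHOX2A) and 0.090 (GATA2) at 6 days and 0.066 (GATA2) in the xenograft. MEIS2 input changes turned to 0.070 in NGP cells and 0.056 in the xenograft. Enrichment turned to 0.11 (GATA3) and 0.40 (TBX2) in NGP cells and 0.37 (GATA3) in the xenograft. Levels, NGP minus Kelly, turned to 0.0097 (PHOX2A), 0.34 (HAND2) and -0.15 (MEIS2), and the enrichment difference of PHOX2A to 0.90.

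With a replicate left out, the enrichment change of Kelly cells at 1 day was called for 1 to 2 members. Of all genes, 6.41% to 9.20% were higher there and 3.17% to 8.80% lower. In NGP cells 1 to 3 members were enriched (23.6% to 28.9% of all genes higher by the adjusted p alone). The Kelly 6 days minus 1 day response was called for 3 to 5 (2.27% to 6.67% higher, 3.01% to 4.66% lower). The NGP minus Kelly response was called for 0 to 1 (0.438% to 1.19% higher, 0.248% to 0.933% lower). Xenograft fits without a replicate had 1 library in a group, so their counts are not given. Enrichment changes crossed 0 for PHOX2A at 1 day (-0.054 to 0.28) and, at 6 days, for PHOX2A (-0.51 to 0.048), GATA2 (-0.33 to 0.12) and LMO1 (-0.23 to 0.72). In NGP cells those of GATA2 (-0.43 to 0.33), GATA3 (-0.0035 to 0.15), TBX2 (-0.23 to 0.73), LMO1 (-0.50 to 0.012) and MEIS2 (-0.27 to 0.082) did, with the input changes of ISL1 (-0.18 to 0.0060) and MEIS2 (-0.22 to 0.11) and the enrichment of GATA2 (-0.28 to 0.43). In the xenograft those of PHOX2A (-0.62 to 1.23), HAND2 (-1.35 to 0.076), GATA2 (-0.86 to 0.28), TBX2 (-1.34 to 0.80) and MEIS2 (-0.68 to 0.24) did, with the MEIS2 input change (-0.52 to 0.19). The response differences of GATA2 (6 days minus 1 day, -0.025 to 0.084, and NGP minus Kelly, -0.099 to 0.086) and PHOX2A (NGP minus Kelly, -0.15 to 0.046) and the HAND2 level difference (-0.051 to 0.033) also crossed 0.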
